A study of Mus musculus with 24 samples.

Results

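Chil1, Chil3, Chil4, Chia1 and Chit1 are the chitinase and chitinase-like genes described here, 5 of the 23891 genes in the expression table. They were chosen by name as a gene family, with earlier results of these data known. RNA from the left lung lobe of 24 C57BL/6 mice was measured in 4 groups. The naïve adult group held 5 mice aged 20 wk given saline, and the naïve aged group held 5 mice aged 80 wk given saline. The HDM group held 7 mice aged 80 wk that had been sensitized and challenged through the nose with house dust mite extract (HDM, 50 μg per dose), a common aeroallergen. The HDM + Dex group held 7 such mice that also received dexamethasone (Dex), a glucocorticoid, (4 mg/kg, repeated at intervals of 72 h while the challenges went on). Challenged lungs were collected once 24 h had passed since the final HDM dose. No adult mouse was challenged, so the response to HDM is described in aged lungs and was not compared with that of adults. Lavage and lung lobes were both collected in the study, and whether the sequenced lobes had been lavaged is not given in the sources used here.

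Chitinases cut chitin, the sugar polymer of fungal walls and of the shells of mites and insects, and belong to the glycoside hydrolase 18 family. Chia1 encodes acidic mammalian chitinase and Chit1 encodes chitotriosidase, which are the active enzymes of mouse and human. The chitinase-like genes keep the fold but have lost the catalytic glutamate: Chil1 encodes a secreted protein also called BRP-39 (YKL-40 in human), and Chil3 and Chil4 encode Ym1 and Ym2, lectins of rodents. In type 2 airway inflammation Chil3 is known as a product of macrophages, and Chil4 and Chia1 as products of the airway epithelium.

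The genes lie in 2 clusters of the mouse genome (GRCm38). On chromosome 1, Chit1 spans 134111242 to 134151540 and Chil1 spans 134182176 to 134190181, both on the plus strand. On chromosome 3, Chia1 spans 106113229 to 106132120 on the plus strand, and Chil3 (106147554 to 106167564) and Chil4 (106201490 to 106219507) follow on the minus strand. None of the 5 overlaps another annotated gene. The stretch of coding sequence that ends at the catalytic position separates enzymes from chitinase-like genes, and is shown for that reason from the longest open reading frame of each gene's annotated transcripts, with the codon of that position in capitals.
Chia1: gatggactggacctggactggGAA
Chit1: gatggccttgaccttgactggGAG
Chil1: gatgggctggatctcgcctggCTC
Chil3: gatggcctcaacctggactggCAG
Chil4: gatggcctcaacctggactggCAG
Chia1 and Chit1 carried GAA and GAG, both codons of glutamate. Chil1 carried CTC, a codon of leucine, and Chil3 and Chil4 both carried CAG, a codon of glutamine. Over these 24 bases Chil3 and Chil4 were the same.

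Chil3 and Chil4 were alike over the whole coding sequence, with 1141 of 1197 aligned bases identical (95.3%), whereas the other pairs of members shared 66.1% to 78.0%. Of the 50-base windows of Chil3 transcripts, 438 of 1629 (26.9%) also occurred in another gene, 275 of them in Chil4 and 217 in the pseudogene Gm6522. Of the windows of Chil4, 304 of 2763 (11.0%) were shared. No such window was shared by Chil1, Chia1 or Chit1. Converted to estimated reads, the low values of Chia1 lay within 0.05 of a whole read in 11 of 11 samples and those of Chit1 in 7 of 7, but those of Chil4 in 8 of 15. Reads from the shared windows cannot be assigned by sequence alone, so the levels of Chil3 and Chil4 are less certain than those of the other members, and how the authors' counting treated such reads is not given in the sources used here.

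The promoters of the 3 members on chromosome 3 are shown because these genes neighbor each other and because the ratio of Chil4 to Chil3, differed between the HDM and HDM + Dex groups. Each window, from RefSeq, runs from 250 bases before to 50 bases after the annotated start and is written in the direction of the gene. Capitals mark TTCNNNGAA, the spaced palindrome that STAT proteins bind, and TATAAA, the sequence of the TATA box.
Chil3, chr3:106167515-106167814, minus strand of GRCm38.p6: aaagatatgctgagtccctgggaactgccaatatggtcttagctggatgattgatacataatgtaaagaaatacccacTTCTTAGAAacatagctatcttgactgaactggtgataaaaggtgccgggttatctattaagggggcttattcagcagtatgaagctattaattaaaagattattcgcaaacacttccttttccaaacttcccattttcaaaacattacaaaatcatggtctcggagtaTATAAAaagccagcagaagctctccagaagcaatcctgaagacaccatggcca
Chil4, chr3:106219430-106219729, minus strand of GRCm38.p6: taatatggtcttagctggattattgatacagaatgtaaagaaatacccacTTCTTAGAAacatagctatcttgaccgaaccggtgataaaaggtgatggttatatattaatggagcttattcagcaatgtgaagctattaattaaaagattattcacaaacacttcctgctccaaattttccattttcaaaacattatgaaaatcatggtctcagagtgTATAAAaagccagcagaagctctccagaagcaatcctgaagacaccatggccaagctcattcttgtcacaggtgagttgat
Chia1, chr3:106113132-106113431, plus strand of GRCm38.p6: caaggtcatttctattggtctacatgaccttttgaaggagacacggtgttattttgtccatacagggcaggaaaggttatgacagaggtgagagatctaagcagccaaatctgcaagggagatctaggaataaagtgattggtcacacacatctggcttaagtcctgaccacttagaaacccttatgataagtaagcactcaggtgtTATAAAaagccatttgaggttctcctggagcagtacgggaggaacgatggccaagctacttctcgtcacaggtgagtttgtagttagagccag
The windows of Chil3 and Chil4 shared 251 of 270 aligned bases (93.0%). Both held the same copy of the palindrome, TTCTTAGAA, and both held TATAAA. In Chia1 TATAAA was present and TTCNNNGAA was not. TATAAA began 31 bases before the RefSeq start in Chil4 and 43 bases before it in Chia1. In Chil3 it began 3 bases before the RefSeq start and so spanned it. The RefSeq start is that of the gene span given above for Chil3, but not for Chil4 or Chia1. From TATAAA to the next ATG the bases of Chil3 and Chil4 were the same, so their distances differ through the start used and not through the sequence. Searched on both strands, TTCNNNGAA was found in 8.30% and TATAAA in 13.6% of 32851 promoter windows of the same length. The form of this palindrome with 1 more spacer base, which is the form preferred by STAT6, was in none of the 5 members' windows and in 6.95% of all windows. The windows of Chil1 and Chit1 held none of the 3 motifs. No motif overlapped another, and a match or its absence describes letters in this window and not whether a factor binds.

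Levels are given as CPM, read counts on genes scaled to a fixed library total, deposited by the authors with a constant of 0.0001 added. Depth, estimated from the spacing of low values, ran from 10.1 to 33.1 M reads per sample, and 3 reads corresponded to 0.0906 to 0.298 CPM. The share of CPM on 7SL RNA, an abundant noncoding RNA of the signal recognition particle, differed between libraries and between groups, from 9.92% to 42.0%. It was above 25% in 5 of 7 HDM, 4 of 7 HDM + Dex, 1 of 5 naïve adult and 0 of 5 naïve aged mice. By Xist and Ddx3y, the naïve adult group held 5 females, the naïve aged group 2 females and 3 males, the HDM group 2 females and 5 males, and the HDM + Dex group 4 females and 3 males. In the HDM group the 5 males were also the 5 mice with 7SL above 25%, so sex and 7SL share cannot be told apart there. Since the tissue was a whole lobe, more cells of a type and more RNA per cell cannot be told apart either.

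In naïve lungs Chil1 and Chil3 were abundant, Chia1 was moderate, and Chil4 and Chit1 were at or near the limit of detection. Per kilobase of exon, naïve aged lungs held 82.7 CPM of Chil1, 82.2 of Chil3, 8.70 of Chia1 and 0.111 of Chil4, as means over 5 mice. Chil1 and Chil3 did not keep one order there, since Chil1 was above Chil3 in 2 of 5 naïve aged mice and below it in 3. In all 7 HDM and all 7 HDM + Dex mice the order per kilobase was the same, with Chil3 highest, then Chil1, Chia1, Chil4 and Chit1. The plot of all samples shows the members on one scale.

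**Figure D1:**
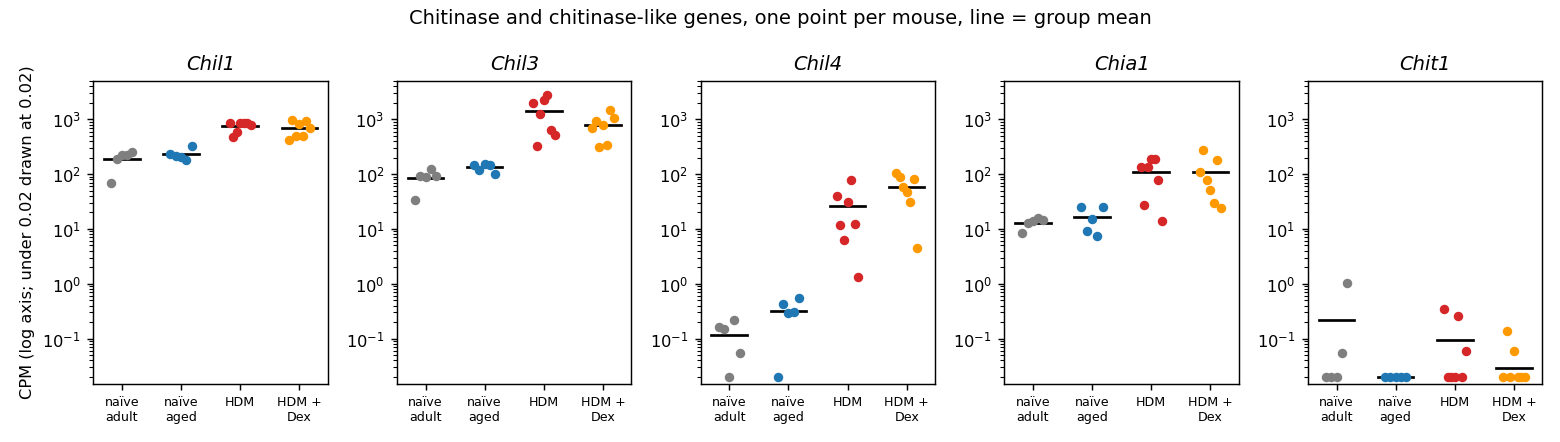
CPM of Chil1, Chil3, Chil4, Chia1 and Chit1 in each mouse, on a log axis, by group (naïve adult, naïve aged, HDM, HDM + Dex); each point is 1 mouse, the line is the group mean, and values under 0.02 CPM are drawn at 0.02. Chil4 runs from at most 0.546 CPM in naïve mice to 105 CPM after HDM + Dex, while Chit1 passes 1 CPM in 1 mouse alone.

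Chia1, the acidic chitinase, rose in the lungs of HDM-challenged aged mice. In naïve aged mice its level was 25.1, 9.31, 15.3, 7.54 and 25.6 CPM in replicates 1 to 5. In HDM mice it ran from 13.9 to 191 CPM, with a median of 134. In HDM + Dex mice it ran from 24.1 to 271 CPM, with a median of 79.6. In each challenged group 6 of 7 mice were above every naïve aged mouse, and the remaining mouse, replicate 7 of each group, lay within the naïve aged range. Group means were 16.6 ± 8.51 (SD, n = 5), 110 ± 72.3 (n = 7) and 107 ± 90.6 CPM (n = 7).

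Chit1, the second active chitinase, was barely detected. It was listed at the constant, and so without reads, in 3 of 5 naïve adult, 5 of 5 naïve aged, 4 of 7 HDM and 5 of 7 HDM + Dex mice. The highest level was 1.02 CPM, in naïve adult replicate 5, from 19 estimated reads, and the highest in a challenged mouse was 0.342 CPM, in HDM replicate 1. Its mean over all samples was below 1 CPM, the minimum for testing, so it was outside the main test. With no filter on low values it was not called in any comparison, at 0.12 in HDM vs. saline (adjusted p = 0.305 in limma) and -0.22 in aged vs. adult (adjusted p = 0.618). Per kilobase of exon its group means were at most 0.119 CPM, against 6.87 CPM or more for Chia1.

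Chil1 rose after HDM. It was 231, 211, 205, 182 and 329 CPM in the 5 naïve aged mice. The HDM mice ran from 481 to 855 CPM with a median of 843, and the HDM + Dex mice from 424 to 984 CPM with a median of 684. Neither challenged group overlapped the naïve aged mice, and the challenged groups overlapped each other. The SD was 153 CPM on a mean of 753 in HDM mice and 227 on 690 in HDM + Dex mice.

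Chil3, or Ym1, also rose after HDM, and its values were widely spread among HDM mice. The naïve aged mice had 149, 117, 155, 148 and 101 CPM. The HDM mice ran from 330 to 2733 CPM with a median of 1267, and the HDM + Dex mice from 307 to 1479 CPM with a median of 803. Again neither challenged group overlapped the naïve aged mice. HDM replicates 1, 4 and 5 were the highest of all challenged mice for Chil3, at 1981, 2281 and 2733 CPM, and none of the 7 HDM + Dex mice reached them.

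Chil4, or Ym2, went from near absence to a median of 12.5 CPM or more. In naïve aged mice it was at the constant in replicate 1 and at 0.421, 0.291, 0.302 and 0.546 CPM in the others, at most 11 estimated reads. Among HDM mice replicate 7 was lowest at 1.30 CPM and replicate 5 highest at 78.1 CPM, with a median of 12.5. Among HDM + Dex mice replicate 7 was again lowest at 4.53 CPM and replicate 1 highest at 105 CPM, with a median of 58.7. All 14 challenged mice were above all 10 naïve mice, and 3 HDM + Dex mice were above every HDM mouse.

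To ask which members responded to allergen in the aged lung, HDM mice were compared with naïve aged mice. Fold changes are on the log2(CPM + 1) scale, which understates them for low genes, and were tested with limma across 17744 genes. Of the 5 members 4 were tested, and all 4 of those were higher at an adjusted p under 0.05 in limma, where 4.04% of all genes tested were called higher and 25.3% were called in either direction. Chil4 passed the filter on low values only through the challenged groups, so it had to differ, and its call is given with that limit. The change in log2 was 1.70 (SE 0.22, adjusted p = 9.07e-05) for Chil1, and 3.02 (SE 0.45, adjusted p = 0.000376) for Chil3. It was 3.65 (SE 0.69, adjusted p = 0.00118) for Chil4 and 2.36 (SE 0.62, adjusted p = 0.00903) for Chia1. As ratios of mean CPM, HDM mice held 3.25 times the Chil1, 10.4 times the Chil3, 82.8 times the Chil4 and 6.65 times the Chia1 of naïve aged mice. Groups did not overlap for Chil1, Chil3 and Chil4, which 1.03% of genes showed in this direction. Ranked by log2 fold change among the genes tested, Chil4 was number 8, Chil3 number 16, Chia1 number 38 and Chil1 number 91.

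Over all genes tested the log2 fold change had a median of -0.23 in this comparison, and -0.01 after median-of-ratios rescaling. The members' changes were then 1.95 for Chil1, 3.27 for Chil3, 3.76 for Chil4 and 2.60 for Chia1. The calls of Chil4 and Chia1 moved with the 7SL share. With 7SL share as a covariate Chil1 (1.89, adjusted p = 0.00106 in limma) and Chil3 (2.68, adjusted p = 0.0127) were still called, while Chil4 (2.14, adjusted p = 0.0719) and Chia1 (1.05, adjusted p = 0.334) were not. In the samples with 7SL under 25%, 2 HDM mice among them, Chil1 (1.86) and Chil3 (2.12) were called and Chil4 (2.10) and Chia1 (1.11) were not. Among females, 2 naïve aged and 2 HDM mice, the changes were 2.09 for Chil1, which alone was called, 1.92 for Chil3, 2.10 for Chil4 and 1.53 for Chia1. Among males all 4 were called, at 1.48, 3.51, 4.26 and 2.57. The difference between the male and the female response did not pass the test for any of the 4, with estimates of -0.61 ± 0.44 (SE) for Chil1, 1.59 ± 0.90 for Chil3, 2.16 ± 1.25 for Chil4 and 1.04 ± 1.14 for Chia1 in log2.

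**Figure D2:**
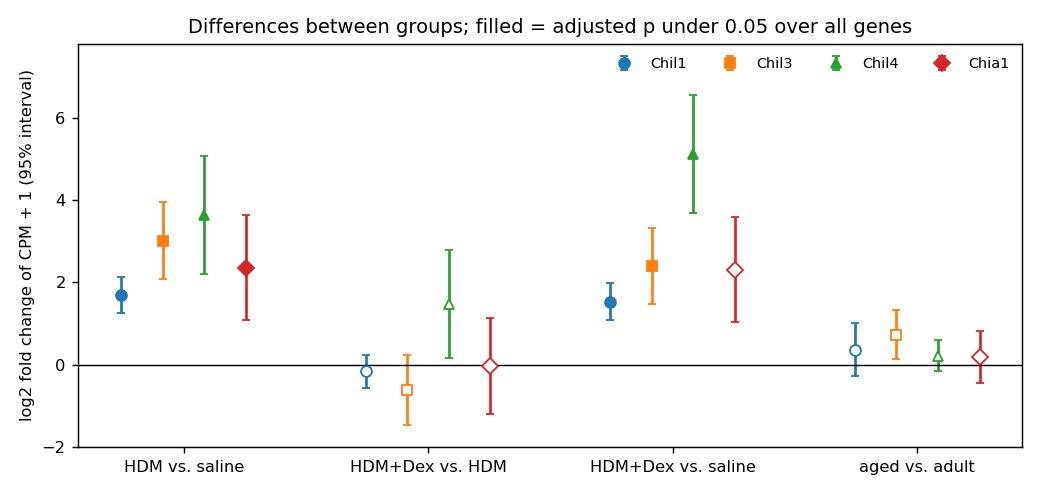
Log2 fold change of CPM + 1 with its 95% interval (vertical axis) for Chil1, Chil3, Chil4 and Chia1 in the 4 comparisons (horizontal axis); filled symbols have an adjusted p under 0.05 in limma. In HDM + Dex vs. HDM the interval of Chil4 lies at 0.17 to 2.79, above 0, with an open symbol, and the intervals of the others include 0.

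After Dex, Chil1, Chil3 and Chil4 were still higher than in naïve aged lungs. Against naïve aged mice, HDM + Dex mice were higher in Chil1 by 1.53 in log2 (SE 0.22, adjusted p = 0.000698 in limma), in Chil3 by 2.40 (SE 0.45, adjusted p = 0.0111) and in Chil4 by 5.13 (SE 0.69, adjusted p = 0.000521). The call and the separation of Chil4 carry the same limit as in HDM vs. saline, since the gene entered the test only through the challenged groups. Chia1 differed by 2.31 (SE 0.62), which missed the threshold at an adjusted p of 0.0531 in limma. Of all genes, 0.445% were called higher and 1.89% in either direction in this comparison. Chil1, Chil3 and Chil4 did not overlap between the groups, which 0.524% of genes showed in this direction. Both challenged groups share the same 5 naïve aged controls. With 7SL share as a covariate Chil3 (2.14, adjusted p = 0.124) was not called and Chil1 (1.69) and Chil4 (3.94) were, and among females only Chil1 (1.88) was called. Chia1 was called in 13 of 33 alternatives, among them males only, at 2.81.

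HDM + Dex mice were compared with HDM mice to ask which members responded to the steroid. None of the 4 members tested passed the threshold, in a comparison where 0.964% of all genes were called. Chil1 differed by -0.17 in log2, with a 95% interval from -0.57 to 0.24. Chil3 differed by -0.62 (-1.47 to 0.23), the HDM + Dex mean being 0.574 times the HDM mean. Chia1 differed by -0.04 (-1.21 to 1.13), a wide interval that spans more than 1 log2 unit on either side of 0. Chil4 lay in the other direction, at 1.48 (0.17 to 2.79), with an unadjusted p of 0.0281 and an adjusted p of 0.288 in limma. Its mean was 59.5 ± 35.2 CPM (SD, n = 7) in HDM + Dex against 25.9 ± 26.8 CPM (n = 7) in HDM mice. These intervals do not show that the members were unaffected by Dex. By sex, the Chil3 estimate was -1.25 among males and 0.49 among females, a difference of -1.74 ± 0.82 (SE) that did not pass (unadjusted p = 0.0471, adjusted p = 0.897 in limma).

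Chil4 as a share of Chil3 and Chil4 together does not depend on the total of a library. In naïve aged mice the share was at most 0.538%, with a median of 0.204%. In HDM mice it ran from 0.254% to 3.42%, with a median of 1.88%. In HDM + Dex mice it ran from 0.432% to 16.04%, with a median of 8.23%, and 6 of the 7 were above every HDM mouse. The exception was HDM + Dex replicate 7, at 0.432%. The sum of both genes was 1419 ± 972 CPM (SD, n = 7) in HDM and 860 ± 414 CPM (n = 7) in HDM + Dex mice.

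The difference between the paralogs was tested on the log2 ratio of Chil4 to Chil3, each with 1 CPM added, by 2-sided exact permutation over 4 comparisons. The ratio was higher in HDM + Dex than in HDM mice by 2.10 (exact permutation p = 0.0239 over 3432 splits, adjusted p = 0.0478 over the 4 comparisons). It was higher in HDM + Dex than in naïve aged mice by 2.73 (exact permutation p = 0.0139, adjusted p = 0.0478). HDM and naïve aged mice differed by 0.63 (exact permutation p = 0.282), a value that depends on the constant, Chil4 being near 0 in naïve mice. It was 2.34 with 0.1 CPM added (exact permutation p = 0.0164) and -0.91 with 5 CPM added (exact permutation p = 0.0480). In the same way the ratio of HDM + Dex to naïve aged mice was 0.92 with 5 CPM added and did not pass (exact permutation p = 0.206). The pseudogene that shares windows with both genes, named after its values were seen, stayed at 0.99 to 4.56 CPM in HDM mice and 1.06 to 2.73 CPM in HDM + Dex mice.

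**Figure D3:**
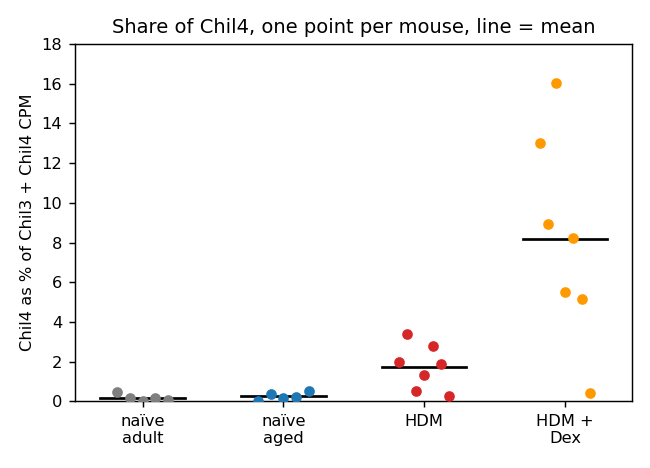
Chil4 as a percent of Chil3 plus Chil4 CPM (vertical axis, from 0) in each mouse of the 4 groups (horizontal axis); points are mice and the line is the group mean. In the HDM + Dex group 6 of 7 mice lie at 5.14% to 16.04%, and all HDM mice lie at or under 3.42%.

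In lungs that had not been challenged, aged and adult mice were compared to ask whether age alone moved these genes. None of the 4 members tested was called, in a comparison where 0.654% of genes were called. Chil3 had 33.4, 93.9, 88.2, 123 and 92.3 CPM in the 5 naïve adult mice and was higher in naïve aged mice in 23 of 25 pairs of mice, with a difference of 0.73 in log2 (SE 0.28, unadjusted p = 0.0197, adjusted p = 0.334 in limma). Chil1 had 70.4, 191, 220, 221 and 253 CPM in naïve adult mice and differed by 0.37 (SE 0.30, adjusted p = 0.609). Chia1, with 8.31 to 15.6 CPM in naïve adult mice, differed by 0.20 (SE 0.30, adjusted p = 0.772). Chil4 was at most 0.217 CPM in naïve adult mice, about the level of 3 reads. Among naïve adult mice the lowest values of Chil1, Chil3 and Chia1 were all in replicate 1, the library with 7SL at 42.0%. With 7SL share as a covariate the estimates for Chil1 and Chia1 turned to -0.12 and -0.10, and that for Chil3 was 0.26. Without naïve adult replicate 1 the Chil3 estimate was 0.42. All 5 naïve adult mice were female, so for these genes age and sex were not separated.

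Some pairs of members, but not all, varied together between mice of one group. After the group means were removed, Chil4 and Chia1 were the most strongly related pair over 24 samples, with r = 0.746 and rho = 0.663 (permutation within groups, adjusted p = 0.00516 and 0.0140 over 6 pairs). Without the 2 samples farthest from the median r was 0.562. The relation held within the 7 HDM mice (r = 0.794) and the 7 HDM + Dex mice (r = 0.811), and in the naïve mice, where Chil4 was near 0, r was -0.235. Chil3 and Chia1 followed (r = 0.628, rho = 0.643, permutation adjusted p = 0.0140 for both), at r = 0.888 in HDM and 0.359 in HDM + Dex mice, and r was 0.574 without the 2 farthest samples. Chil1 and Chil3 had r = 0.581 and rho = 0.503 (permutation adjusted p = 0.0110 and 0.0277), and r = 0.552 without the 2 farthest samples. Chil1 and Chia1 had r = 0.396 and rho = 0.484 (permutation adjusted p = 0.0492 and 0.0296), with r = 0.501 without the 2 farthest. After median-of-ratios rescaling r was 0.613 for this pair and 0.612 for Chil1 and Chil3. Chil3 and Chil4, the near-identical pair, did not pass (r = 0.389, rho = 0.397, permutation adjusted p = 0.191 and 0.128). Within HDM mice their r was 0.734, and within HDM + Dex mice it was -0.05. Chil1 and Chil4 did not pass either (r = 0.103, rho = 0.266, permutation adjusted p = 0.616 and 0.213). The 7SL share differed among these mice too. In HDM + Dex mice Chia1 was 79.6 to 271 CPM in the 4 mice with 7SL above 25% and 24.1 to 52.3 CPM in the other 3. Chil4 was 58.7 to 105 CPM and 4.53 to 46.8 CPM in the same mice. Sex differed among these mice as well. In HDM + Dex mice Chia1 averaged 154 CPM in males and 72.0 CPM in females, and Chil4 84.7 and 40.6 CPM. Chil1 and Chil3 lay the other way there, at 632 against 733 CPM and 643 against 918 CPM. The part of the 7SL share and of sex in these relations was not tested.

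**Figure D4:**
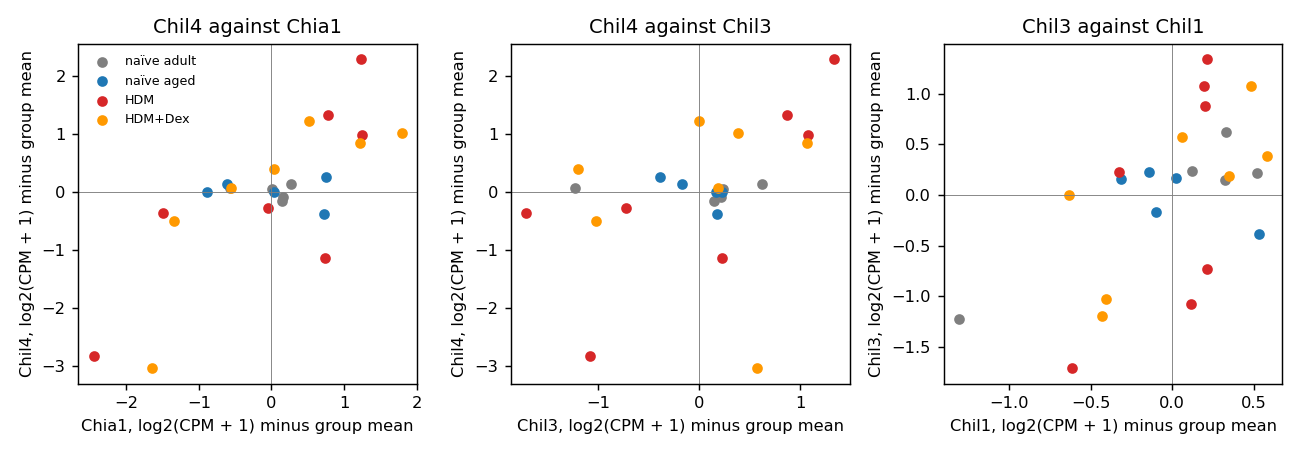
Deviation of each mouse from its group mean in log2(CPM + 1), for Chil4 against Chia1, Chil4 against Chil3 and Chil3 against Chil1 (both axes in log2 units); points are mice, colored by group. Over 24 samples r is 0.746 for Chil4 with Chia1 and 0.389 for Chil4 with Chil3. Within HDM mice these values are 0.794 and 0.734, and within HDM + Dex mice 0.811 and -0.05.

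The genes whose variation between mice was most like that of a member differed from member to member. For Chil3 they were Mrc1, the macrophage mannose receptor (r = 0.902), Rab3il1 (0.892) and the chemokine gene Ccl9 (0.872), each over 24 samples with group means removed. For Chil4 they were Itln1, encoding intelectin (r = 0.896), and the goblet cell genes Fcgbp (0.876) and Clca1 (0.811). For Chia1 they were Ccl11, encoding eotaxin (r = 0.917), the ribonuclease gene Rnase2a (0.914) and Retnla (0.912), encoding resistin-like molecule alpha. For Chil1 they were Sftpa1, encoding surfactant protein A (r = 0.949), Crip1 (0.934) and Dap (0.911). In the 14 challenged mice alone the values for these 12 pairs ranged from 0.848 for Clca1 to 0.968 for Rnase2a. These genes were selected for the highest values among all genes tested and are given as a description.

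Other genes of the glycoside hydrolase 18 family were not called. Of 5 listed, 3 passed the filter, and none of them passed the test in any of the 4 comparisons. Chid1, the highest of them, had 22.1 ± 2.69 CPM (SD, n = 5) in naïve aged, 24.7 ± 2.90 (n = 7) in HDM and 24.0 ± 3.39 (n = 7) in HDM + Dex mice. Ctbs, the lysosomal chitobiase, differed by -0.61 in log2 in HDM vs. saline (adjusted p = 0.0773 in limma), and Ovgp1, the oviductal glycoprotein gene, by -0.18 (adjusted p = 0.469). Chil5, a chromosome 3 neighbor, had at most 0.815 CPM in any mouse. Chil6 was not among the genes of the deposited data, so it has no level here.

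Enzymes that finish the breakdown of chitin sugars were described over 5 genes, of which 2 rose after HDM and none fell, with a list median of 0.18 in log2 against -0.23 for all genes. They were Hexa (0.70, SE 0.21, adjusted p = 0.0208 in limma), a lysosomal enzyme gene, and Amdhd2 (0.66, SE 0.17, adjusted p = 0.00913), an N-acetylglucosamine-6-phosphate deacetylase. None of the 5 was called in HDM + Dex vs. HDM, where the list median was -0.24 against 0.03 for all genes.

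Of the receptors and partners of chitin and chitinase-like proteins, 2 of 6 tested were called higher after HDM and none lower. They were Lgals3, encoding galectin-3, at 1.79 (SE 0.31, adjusted p = 0.000722 in limma) and Clec7a, encoding the beta-glucan receptor dectin-1, at 1.71 (SE 0.33, adjusted p = 0.00131). The list median was 0.60. With Dex both had lower estimates, of -0.95 and -0.92, that did not pass the threshold (adjusted p = 0.105 and 0.141). Il13ra2, a receptor of Chil1 protein, was at or under 3 reads in every naïve aged mouse.

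Type 2 cytokines are known inducers of these genes. Of 8 tested genes of cytokines, receptors and factors 1 was called after HDM, Il1rl1, the IL-33 receptor, at 1.33 (SE 0.28, adjusted p = 0.00204 in limma). Il33 differed by 0.92 (adjusted p = 0.0550), and Stat6, the factor that carries the IL-4 and IL-13 signal, by -0.19 (adjusted p = 0.366). Il13 was at or under 3 reads in every naïve adult and naïve aged mouse and was not tested.

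Genes of alternative macrophage activation also rose. After HDM 7 of 9 were called higher and none lower, with a list median of 1.46 in log2. Retnla, from 6.07 ± 2.75 CPM (SD, n = 5) to 490 ± 302 CPM (n = 7), rose by 5.73 (SE 0.65, adjusted p = 3.76e-05 in limma). Arg1, encoding arginase-1, rose by 5.31 (SE 0.97, adjusted p = 0.000977), and Ccl24, encoding eotaxin-2, by 3.52 (SE 1.01, adjusted p = 0.0150). Ccl24 averaged 0.200 CPM in naïve adult and 0.224 CPM in naïve aged mice and passed the filter on low values only through the challenged groups. Its call, counted among the 7, carries the limit given for Chil4. Against HDM, none of the 9 was called with Dex, and the list median was -0.61 with 1 positive estimate, that of Retnla. Retnla was 564 ± 432 CPM (n = 7) and Arg1 was 49.9 ± 54.1 CPM (n = 7) in HDM + Dex mice, against 204 ± 205 CPM (n = 7) for Arg1 in HDM mice. Mrc1, the gene most like Chil3 between mice, differed by 0.87 in HDM vs. saline (adjusted p = 0.0691).

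Some markers of the cell types that are known to make these proteins, but not all, differed between groups as well. In the alveolar macrophage list 2 of 9 genes were called higher after HDM, Itgax (1.88, SE 0.28, adjusted p = 0.000419 in limma) and Atp6v0d2 (1.53, SE 0.31, adjusted p = 0.00185), and the defining markers Marco (-1.03, adjusted p = 0.362) and Siglecf (-0.13, adjusted p = 0.807) did not pass. The list median was -0.11 in log2 against -0.23 for all genes, and 4 of the 9 estimates were positive. Itgax and Atp6v0d2 alone averaged 136 and 145 CPM in HDM mice, so they made up much of the sum of the list there. The summed level of the 9 genes was 122 to 187 CPM in naïve aged, 152 to 572 CPM in HDM and 125 to 325 CPM in HDM + Dex mice. Of 7 monocyte and interstitial macrophage genes 4 were called higher, with C1qb at 1.82, Ms4a7 at 1.63 and C1qc at 1.41, and the sum was 87.3 to 125, 102 to 367 and 77.3 to 258 CPM in the same groups. As with Chil3, the medians of both sums were lower in HDM + Dex than in HDM mice, at 211 against 397 CPM and 200 against 277 CPM, and their part in the level of Chil3 was not tested.

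In the goblet cell list, 4 of 7 tested genes were called higher after HDM and 4 of 7 after HDM + Dex against naïve aged mice. Clca1 rose by 6.15 in log2 (SE 0.77, adjusted p = 8.88e-05 in limma), Slc26a4, encoding pendrin, by 4.24 (SE 0.46, adjusted p = 2.83e-05) and Fcgbp by 3.06 (SE 0.68, adjusted p = 0.00323) in HDM mice. The summed level of all 8 genes of the list was 137 to 361 CPM in naïve aged mice, 215 to 1203 CPM with a median of 449 in HDM mice, and 265 to 1725 CPM with a median of 1117 in HDM + Dex mice. None of the 7 was called in HDM + Dex vs. HDM, and all 7 had positive estimates, with a median of 0.70. HDM + Dex replicate 7, the mouse with the lowest Chil4 and Chia1 of its group, also had the lowest goblet sum, 265 CPM. In the HDM group this was not so, since replicate 7 had the lowest Chil4 and Chia1 and a goblet sum of 319 CPM, and replicate 3, with 134 CPM of Chia1, had the lowest sum, 215 CPM. The part of goblet cells in the higher Chil4 share was not tested.

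Several other marker lists held genes that fell after HDM, where 21.2% of all genes tested were called lower (3765 lower and 717 higher, against 2050 and 1930 after median-of-ratios rescaling). Of 5 club cell genes 4 fell after HDM, with Scgb3a2 at -2.98, Cyp2f2 at -2.90 and Scgb1a1 at -2.46 in log2, and the sum was 4721 to 6752 CPM in naïve aged, 297 to 2807 CPM in HDM and 603 to 5115 CPM in HDM + Dex mice. All 5 ciliated cell genes fell after HDM, with Ccdc39 at -1.93, and 3 of the 5 rose with Dex against HDM. Of 8 neutrophil genes tested none rose and 3 fell after HDM, led by S100a9 at -1.52, and 5 were called higher in naïve aged than in naïve adult mice. All 7 heart muscle genes fell after HDM, led by Myh6 at -3.67, and their sum was 561 to 1039 CPM in naïve aged and 21.4 to 422 CPM in HDM mice. Of 3 eosinophil genes tested Ccr3 was called higher after HDM (1.44, adjusted p = 0.0344 in limma), and the sum of 4 was 1.09 to 4.37, 3.41 to 24.0 and 3.55 to 30.6 CPM. Ccr3 averaged 0.395 CPM in naïve adult and 0.271 CPM in naïve aged mice. It passed the filter on low values only through the challenged groups, so its call carries the limit given for Chil4. Of 8 type 2 alveolar genes Sftpd was called higher (0.79), all 5 endothelial genes fell, led by Tek at -0.86, and 3 of 5 type 1 alveolar genes fell, led by Rtkn2 at -0.98. The part of these markers in the members' levels was not tested.

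**Figure D5:**
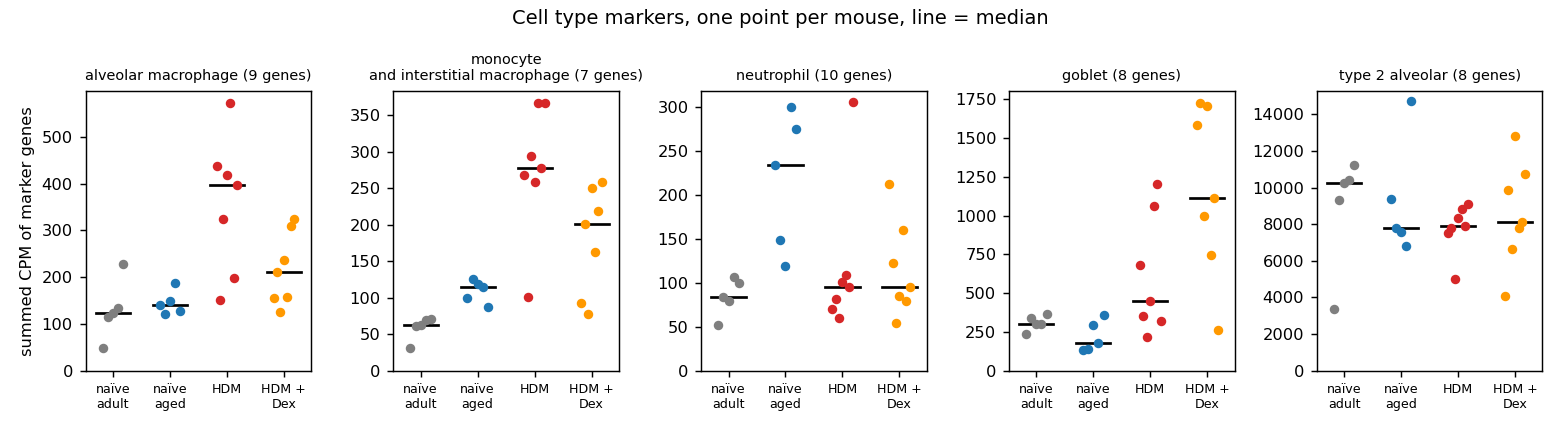
Summed CPM (vertical axes, each from 0) of the marker genes of alveolar macrophages, monocytes and interstitial macrophages, neutrophils, goblet cells and type 2 alveolar cells in each mouse of the 4 groups (horizontal axis); points are mice and the line is the group median. The goblet sum has a median of 449 CPM in HDM and 1117 CPM in HDM + Dex mice, and the alveolar macrophage sum 397 and 211 CPM.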

How the data were processed

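Left lung lobe RNA of 24 mice was analyzed. Per the methods and labels, stranded mRNA libraries were sequenced as paired-end reads and processed with Picard, STAR and limma, while the submitters' processing notes name FastQC, STAR, DESeq2 and mm9. The authors deposited 1 table of CPM values with a constant of 0.0001 added. Its gene coordinates followed GRCm38 (GENCODE vM21), since 23140 of 23276 matched symbols had the same start. Depth was estimated from the spacing of low values as 10.1 to 33.1 M reads, and 80.8% to 85.4% of low values were whole multiples of it within 0.05 of a read, so no count test was run. The estimate covers counting error only.

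Groups followed the labels, and since nothing in the labels says that replicates were raised apart, p-values measure the spread between these samples. The 17744 genes that averaged 1 CPM or more were tested with limma 3.58.1 in R 4.3.3 on log2(CPM + 1), by eBayes with a trend and Benjamini-Hochberg adjustment over all of them, at 0.05. The 3 comparisons among aged mice came from 1 fit of 19 samples, and aged vs. adult from 10 samples. The script was tested on simulated data. The Chil4 to Chil3 ratio was compared by 2-sided exact permutation, and correlations by 100000 permutations within groups. Alternatives were the pseudocount, filter, scaling, samples in the fit, sample weights, replicate block, sex covariate and leaving out each sample. For the Chil4 to Chil3 ratio only the constant added and leaving out each sample were varied. The 7SL share as a covariate, the restriction by 7SL share and the split by sex were added after the data were seen.

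The members and all gene lists were chosen with earlier results of these data known. A gene of the list on the breakdown of chitin sugars is not reported here and was left out of its counts. Named genes were the members, up to 3 called genes of each list by the size of the HDM vs. saline change (else the most abundant), and the 3 genes most correlated with each tested member. Other genes named, such as Marco, Siglecf, Stat6 and Gm6522, were chosen after their values were seen. Coding sequences came from GENCODE transcripts and promoters from RefSeq (GRCm38.p6), where all 5 members matched. Python 3.11.15, scipy 1.17.1 and Biopython 1.88 were used.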

Additional observations from a re-analysis of the deposited data

Results flagged for a closer look

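A single mouse stood far from the others of its group in 2 of the 24 combinations of measure and group examined. The measures were the 5 members and the Chil4 share, in 4 groups. Chance passes this check in about 1 of 20 where values are normally spread. Both cases were Chit1, which was at the constant in 3 of 5 naïve adult and 5 of 7 HDM + Dex mice. That rate does not hold for such values. In naïve adult mice replicate 5 had 1.02 CPM, where the other 4 had at most 0.0542 CPM. In HDM + Dex mice replicate 2 had 0.140 CPM, where the other 6 had at most 0.0590 CPM. The second value corresponds to 2 estimated reads.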

How the results depend on the processing

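In HDM vs. saline, 4 members were called in all but 3 of 33 alternatives, namely 2 with 7SL share as a covariate, 2 in samples with 7SL under 25% and 1 among females. In HDM + Dex vs. saline the count was 3, 1 among females, and 3 or 4 otherwise, 2 with the 7SL covariate. No member was called in HDM + Dex vs. HDM or in aged vs. adult under any alternative run. Signs turned in estimates that were never called. In HDM + Dex vs. HDM, Chil3 was 0.49 among females and 0.20 with 7SL under 25%. Chia1 was 0.33 with a sex covariate, 0.24 with the 7SL covariate, 0.62 among females, 0.24 among males and 0.017 with 7SL under 25%, and -0.45 to 0.23 when each sample was left out. In aged vs. adult, Chil1 was -0.12 with the 7SL covariate, and Chia1 was -0.10 with it and -0.000642 after median-of-ratios rescaling. The Chil4 to Chil3 ratio moved with the constant added. In HDM vs. saline it was 2.34 with 0.1 CPM and -0.91 with 5 CPM, in HDM + Dex vs. saline 0.92 with 5 CPM, and in aged vs. adult 0.073 with 0.1 CPM, against -0.51. In HDM + Dex vs. HDM the unadjusted exact permutation p of the ratio stayed under 0.05 in 16 of 16 alternatives. Those were other constants and leaving out each sample. No alternative of the ratio took sex or 7SL share into account, so its dependence on them was not tested. The adjustment over the 4 comparisons was not repeated in the alternatives. The cause of these shifts was not tested.

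Counts of genes called over the whole table depended on the settings. In HDM vs. saline 4482 genes were called, 717 of them higher, 7876 with sample weights, 1571 with the 7SL covariate, 1072 with 7SL under 25%, 9 among females, and 2954 to 5338 leaving out each sample, lowest without naïve aged replicate 3. After median-of-ratios rescaling 3980 were called, 1930 higher and 2050 lower. In HDM + Dex vs. HDM 171 were called, 83 with no filter, 506 rescaled, 316 with all 24 samples in the fit, 1 with the 2 groups alone, 611 with weights, 293 with a sex covariate, 563 with the 7SL covariate, 3 among females, 302 among males, 11 with 7SL under 25%, and 2 to 544 leaving out each sample. In HDM + Dex vs. saline 335 were called, 213 with no filter, 167 rescaled, 190 with all samples, 519 with the 2 groups alone, 5471 with weights, 1929 with a sex covariate, 34 with the 7SL covariate, 9 among females, 2196 among males, 28 with 7SL under 25%, and 66 to 772 leaving out each sample. In aged vs. adult 116 were called, 67 at a mean of at least 5 CPM, 183 rescaled, 65 with all samples, 784 with weights, and 74 to 154 leaving out each sample.

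Replicate numbers did not pair the samples. Deviations of same-numbered samples had r of -0.238 to 0.407, above 0.1 in 4 of 32 pairs. With a replicate block, 5644, 8, 898 and 168 genes were called in the 4 comparisons, in the order above, and 4, 0, 4 and 0 members. Depth limits Chit1 throughout and Chil4 in naïve mice, where levels lie within a few reads of 0.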
